A study of Mus musculus with 6 samples.

Results

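The choroid plexus epithelial genes described here are Kl, Folr1, Clic6, Otx2, Sostdc1, Aqp1, Slc4a5, Prlr, Tmem72 and F5, chosen by gene name, with earlier results of these data known. All 10 were found among the 55471 genes of the authors' deposited table, and all 10 were among the 18603 genes that carried an adjusted p. The choroid plexus is a fold of vascular tissue in the brain ventricles, covered by an epithelium that secretes cerebrospinal fluid. Its epithelial cells carry water and ion transporters on the ventricular face, take up folate and hormones from blood, and bind neighbouring cells by tight junctions. The plexus of the lateral ventricle lies along the hippocampus.

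The RNA came from the hippocampus of wild-type (WT) mice 24 h after cerebral ischemia-reperfusion, a stroke model that interrupts the brain's blood supply and then lets it return. There were 3 samples given saline and 3 given Visudyne, the light-activated drug verteporfin, which the study used for ablation of the meningeal lymphatic vessels. The labels used here give no age or sex, and do not say whether each sample is a separate animal. The p-values weigh a difference against variation between samples, which may not be that between animals. The comparison asks how hippocampal expression differs between the 2 treatments. Because the deposited table does not say which treatment is the numerator, directions are given only as the positive and the negative side of its fold change. Genes of hippocampal neurons were abundant in the authors' deposited table, with a mean normalized count of 5804 for Neurod6, a transcription factor of pyramidal neurons, and 2333 for Prox1, the marker of dentate granule cells.

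None of the 10 genes passed the authors' adjusted p of 0.05 in either direction, and none had an unadjusted p under 0.05. Over all tested genes, 0.328% passed the adjusted threshold, 0.183% on the positive side, and 6.81% had an unadjusted p under 0.05. The fold change lay on the positive side for 9 of the 10, beside 50.5% of all tested genes, with Sostdc1 the exception. The largest differences had wide errors. The fitted log2 fold change was 2.16 ± 1.18 (SE) for Aqp1 and 2.14 ± 1.24 for Slc4a5, and the authors' deposited table gives them an unadjusted p of 0.0666 and 0.0849. In bulk tissue, more cells of a type and more RNA per cell cannot be told apart.

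The deposited table holds no column for single samples, but the reads of each library could be recovered for some genes from its mean of 6 libraries, its p and its fold change. A mean of normalized counts is a sum of whole reads, each worth a fixed step per library, and the mean is written to 15 digits. For genes with a mean under 300, the whole-read combinations that give exactly that mean were listed. For the choroid plexus genes the search was first limited to a range of the positive side's share of the mean. That range was set from the deposited p, fold change and error, which so entered both steps. The search gave 3 to 153 combinations for each of 8 choroid plexus genes. They were kept only where a refit of the count model also returned the authors' p and fold change, within tolerances set after seeing the data. One combination then remained for each of the 8 genes. Otx2 and Tmem72 met only the looser tolerance on z, the p-value's normal score, with differences of 0.0072 and 0.0049. The others lay within 0.002, so the counts of Otx2 and Tmem72 are less certain. Kl and Clic6, with higher means, were not attempted. Libraries A, B and C are on the positive side and D, E and F on the negative side. No library is tied to a named sample or treatment. The size factors, which scale with depth, were 1.20, 1.06 and 0.584 for A, B and C, and 1.52, 1.22 and 0.754 for D, E and F. The total counts of the libraries are not known from the table.

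Promoter sequence was matched in RefSeq (build GRCm38.p6) for 7 of the 10 genes. It is shown for Tmem72 and Otx2, picked because both hold TAATC, a core recognized by OTX-type homeodomain factors. Otx2 is itself such a factor and is needed for choroid plexus development. Each line gives 250 bases before the transcription start, 5′ to 3′ on the gene's strand. Capitals mark TAATC or its reverse complement GATTA in Tmem72, and TAATCC or its reverse complement GGATTA in Otx2.
Tmem72, chr6:116716759-116717008, minus strand: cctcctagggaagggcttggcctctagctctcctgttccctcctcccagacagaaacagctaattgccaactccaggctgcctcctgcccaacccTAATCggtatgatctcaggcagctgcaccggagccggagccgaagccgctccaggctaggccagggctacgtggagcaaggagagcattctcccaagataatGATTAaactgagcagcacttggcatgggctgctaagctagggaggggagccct
Otx2, chr14:48665110-48665359, minus strand: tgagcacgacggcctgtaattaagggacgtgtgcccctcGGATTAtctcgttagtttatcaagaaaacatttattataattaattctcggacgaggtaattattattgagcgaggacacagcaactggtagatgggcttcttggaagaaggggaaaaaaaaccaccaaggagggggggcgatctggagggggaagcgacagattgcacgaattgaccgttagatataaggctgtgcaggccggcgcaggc
Searched on both strands of the 250 bases, TAATC occurred in 19.8% of 32851 promoter windows. Among the 12 windows of the 7 genes it occurred in 2, of Tmem72 and Otx2. The longer TAATCC, which contains TAATC, occurred in 6.25% of windows, and in 1 of the 12 here, of Otx2, 211 bases before the start. In the Tmem72 window TAATC began 155 and 53 bases before the start. These matches describe letters in a window, not binding.

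Among the transport genes, Aqp1 encodes the water channel of the ventricular membrane. Its normalized counts were 135, 689 and 27.4 in libraries A, B and C, and 67.9, 89.9 and 31.8 in D, E and F. Library B stood far above the other 5, and library C, on the same side, held the lowest value, so the groups overlapped. The log2 ratio of the sides' mean counts was 2.17 with all libraries and 0.36 without library B. Slc4a5, an electrogenic sodium bicarbonate cotransporter of the same membrane, had 309, 681 and 154 in A, B and C, and 48.1, 204 and 6.63 in D, E and F. Only library E of the negative side lay above the lowest library of the positive side. The 6.63 of library F rests on 5 reads, and Slc4a5 had the widest range of the 8 genes, 103-fold from F to B. Without library B its ratio of 4.42 became 2.68.

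Folr1 encodes the folate receptor that takes part in moving folate from blood to cerebrospinal fluid. Its counts were 80.2, 342 and 39.4 in A, B and C, and 36.3, 117 and 13.3 in D, E and F. Library E exceeded A and C, and without library B the ratio of the means fell from 2.77 to 1.08. The authors' deposited table gives Folr1 a p of 0.201. Clic6, a member of the chloride intracellular channel family, had a mean normalized count of 732, a p of 0.291 in the authors' deposited table, and a back-calculated log2 fold change of 1.03 ± 0.98 (SE).

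Among receptors and secreted or signalling proteins, Kl encodes klotho, the co-receptor through which FGF23 signals, which is also shed into cerebrospinal fluid. It had the highest mean of the 10, 952, with a p of 0.310 in the authors' deposited table and a back-calculated log2 fold change of 0.64 ± 0.63 (SE). Prlr, the prolactin receptor, had normalized counts of 270, 635 and 118 in A, B and C, and 82.4, 305 and 38.5 in D, E and F. Library E of the negative side exceeded A and C of the positive side. F5, coagulation factor V, had 212, 634 and 89.0 in A, B and C, and 64.6, 203 and 29.2 in D, E and F. There too E lay above C, and B was 3.13 times E.

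Sostdc1, a secreted antagonist of BMP and Wnt signals, was the exception to this order. Its counts were 175, 110 and 59.9 in A, B and C, and 81.7, 204 and 63.7 in D, E and F. Library E was the highest and C the lowest, and the fitted log2 fold change was -0.02 ± 0.45 (SE). Its range from lowest to highest library was 3.41-fold, the narrowest of the 8.

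Otx2 had 324, 505 and 122 in A, B and C, and 114, 333 and 92.9 in D, E and F. The fitted log2 fold change was 0.82 ± 0.78 (SE), with a p of 0.298 in the authors' deposited table. Tmem72, a transmembrane protein, had 366, 580 and 94.1 in A, B and C, and 56.7, 264 and 29.2 in D, E and F. Library E was above C in both genes, and in Otx2 also slightly above A.

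**Figure D1:**
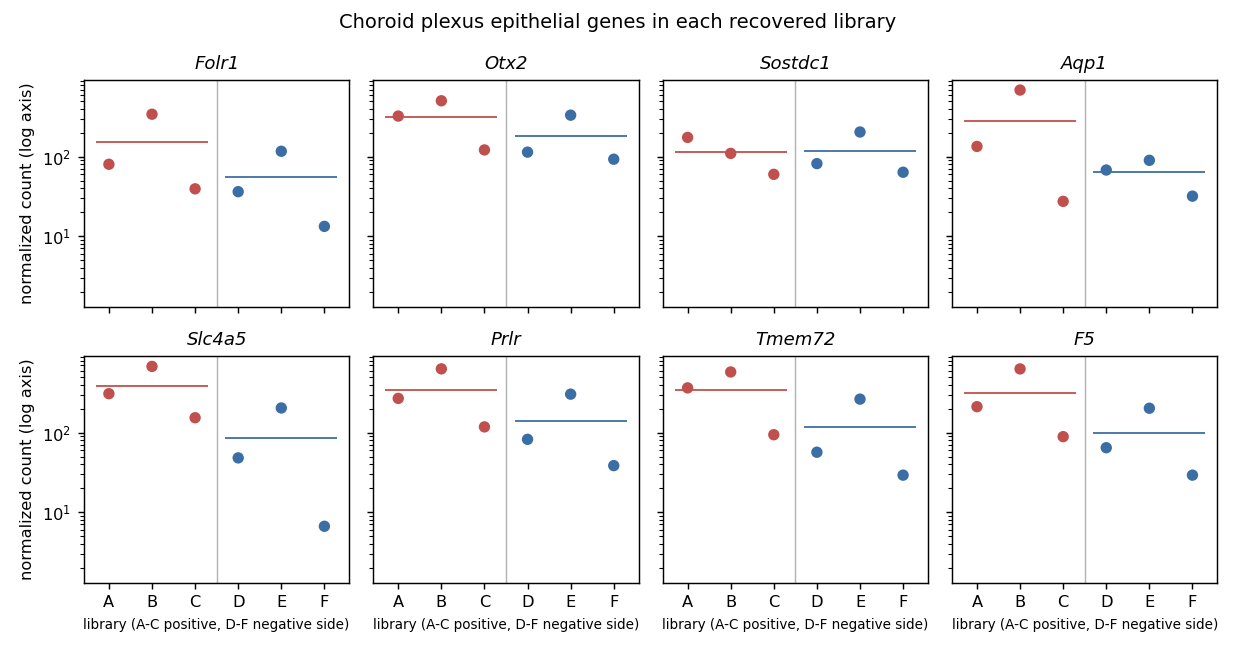
Normalized count (log axis) of 8 choroid plexus genes in each of the 6 recovered libraries. Points are libraries, A to C on the positive and D to F on the negative side, and lines are the means of each side. Library B is highest in 7 of the 8 genes, and the libraries of the sides overlap in all 8.

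The order of the libraries was nearly the same from gene to gene. Library B was the highest in 7 of the 8 genes, and library F the lowest in 6, with C the lowest in Aqp1 and Sostdc1. In all 8 genes, libraries A, B and E each exceeded C, D and F, an order that crosses the sides and was noticed in these values. It was found in 9.11% of 1405 tested genes with a mean of 20 to 40 whose reads were recovered. For these the positive side's share was not limited first, and the mean alone left a single combination, unlike for the 8 genes. In those 1405 genes, B was the highest in 29.8% and F the lowest in 22.6%. The median share of the 6-library total was 46.2% in B, 20.2% in A and 18.8% in E, against 7.69% in C, 5.73% in D and 2.51% in F. The 2 shallowest libraries, C and F, were both low, and so was D, the deepest. The part of depth in this order was not tested.

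The libraries of the sides did not separate for any of the 8 genes, while 16.2% of the 1405 genes separated in either direction, 8.9% with the positive side higher. The largest library was 5.44 to 103 times the smallest in the 7 genes other than Sostdc1. In the 1405 genes the median of that ratio was 2.46, and 11.7% exceeded 5.44, although these genes have lower means and so more counting noise.

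**Figure D2:**
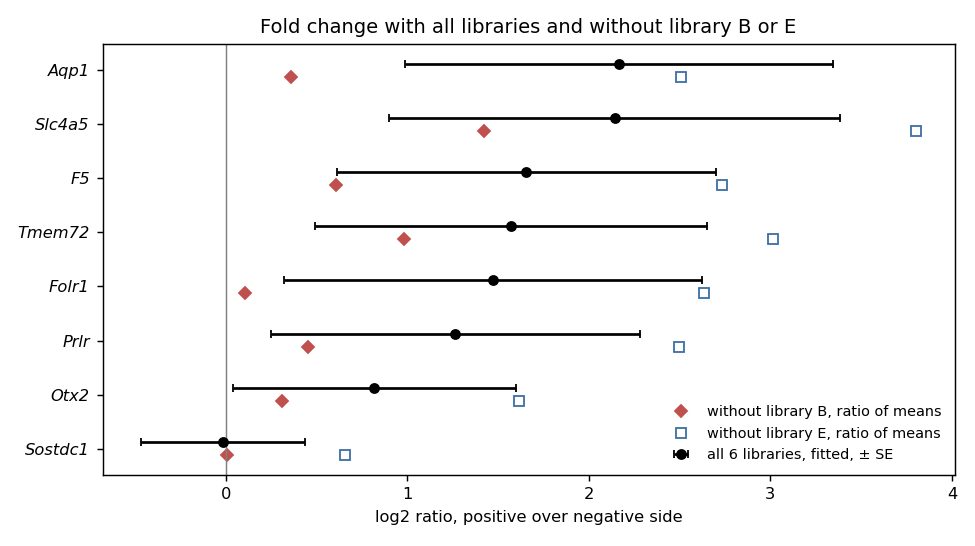
Log2 ratio of the positive over the negative side for 8 choroid plexus genes. Circles are fits on all 6 libraries with their SE, diamonds the ratio of means without library B, and squares that without library E. Without B the ratios lie between 0.01 and 1.42, and without E between 0.66 and 3.80.

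The size of the difference depended on single libraries. The median log2 ratio of the sides' means over the 8 genes was 1.52 with all 6 libraries. It was 0.40 without B and 2.57 without E, the highest library of the negative side. It was 1.66, 1.97, 1.24 and 1.06 without A, C, D or F. The ratio lay on the positive side for 7 of the 8 genes with all libraries and for all 8 without B, where that of Sostdc1 was 0.01.

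The spread behind these fold changes was large for genes of this abundance. The back-calculated standard error exceeded 1 on the log2 scale for 6 of the 10 genes. Beside tested genes with a mean within 2-fold of their own, the 10 had a median error 4.84 times as large, from 1.83 times for Sostdc1 to 6.63 times for Slc4a5. The error was larger than that of 96.8% to 99.8% of such neighbours. The deposited fold changes are shrunken towards 0, and for each of the 10 genes lie within 0.0011 of 0 in the authors' deposited table.

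**Figure D3:**
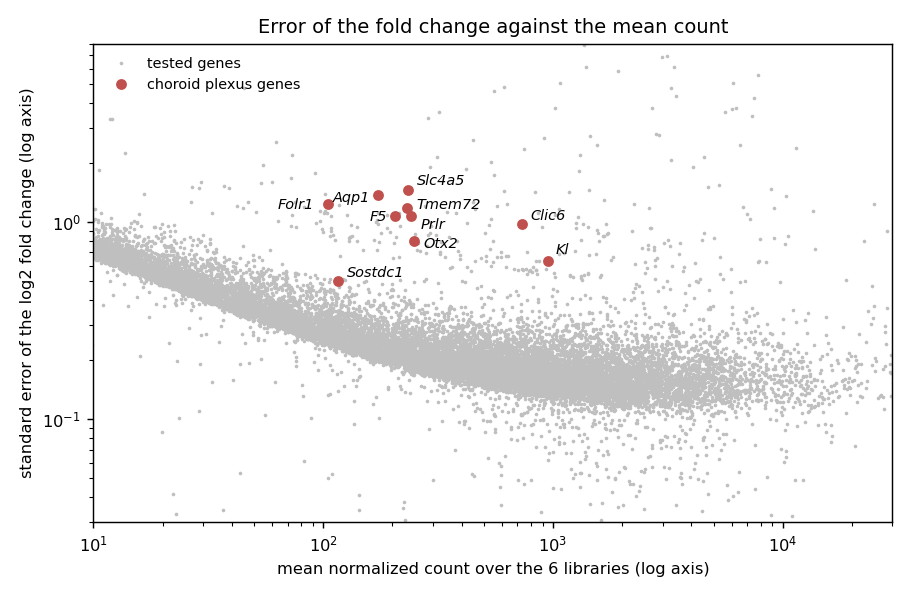
Standard error of the log2 fold change against the mean normalized count (both log axes), back-calculated for tested genes (grey) and the 10 choroid plexus genes (red). Genes outside the axes are not drawn. All 10 genes lie above the median of their neighbours, Sostdc1 nearest to it.

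Per kilobase of exon, the mean normalized count was highest for Clic6, 187, followed by Kl with 102. Aqp1 with 66.0, Sostdc1 with 65.0 and Otx2 with 58.9 lay close together, then Folr1 with 45.6 and Slc4a5 with 40.3. F5 had 27.6, Prlr 15.7 and Tmem72 13.5 on the same scale. Neighbours in this order differed by less than the 3.41-fold or wider range that each recovered gene spanned between libraries. Exon lengths came from a GRCm38 annotation that may not be the authors' own.

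A list of 40 other genes expressed in the choroid plexus epithelium was not limited to genes particular to it. Of these 40, 0 passed the authors' adjusted p, 12 had an unadjusted p under 0.05 on the positive side and 0 on the negative side. Over all tested genes, 3.92% and 2.89% had such a p on the positive and the negative side. All 40 lay on the positive side. The median back-calculated log2 fold change of those with such a value was 0.84, beside 1.45 for the 10 genes and 0.00 for all tested genes. Atp1b1, the most abundant of the 40 with a mean of 49877, had no such value, and its p was 0.972 in the authors' deposited table. Slc4a10 and Htr2c, with means of 3074 and 919, were among the 12. The part of other hippocampal cells in the values of these 40 was not tested. Rdh5, a retinol dehydrogenase, had the smallest p of the 40 in the authors' deposited table, 0.000533, which after adjustment was 0.0909. Its counts were 236, 491 and 151 in A, B and C, and 88.3, 170 and 62.3 in D, E and F. Here E again lay above C, and the fitted log2 fold change was 1.45 ± 0.42 (SE). Abca4, a lipid transporter of the ABC family, had 157, 265 and 75.3 in A, B and C, and 54.1, 89.9 and 45.1 in D, E and F. Ttr, transthyretin, the most abundant secreted protein of the plexus, had a mean of 33085 and a p of 0.156 in the authors' deposited table.

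Reads were recovered for 19 of the 40 with a mean of at least 10. In all 19, libraries A, B and E again exceeded C, D and F, and B was the highest in 18. Kcnj13, a potassium channel of the same epithelium, had 226, 728 and 87.3 in A, B and C, and 42.2, 325 and 14.6 in D, E and F. Cldn2, a tight junction protein, had 106, 340 and 44.5 in A, B and C, and 30.3, 71.9 and 13.3 in D, E and F. Both had the high B and low F of the genes above. The ratio of the means lay on the positive side for all 19 genes, and without library B for 15.

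**Figure D4:**
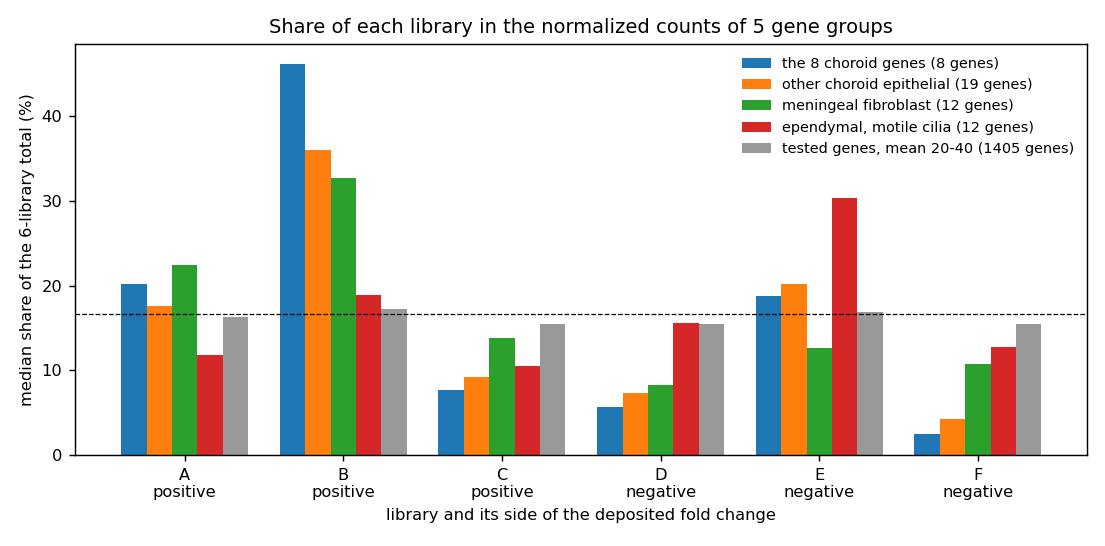
Median share of each library in the 6-library total of normalized counts, in percent, for 5 gene groups. The dashed line marks equal shares. The choroid plexus groups are highest in B and lowest in F, the ependymal genes are highest in E, and the 1405 tested genes lie near the line.

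Genes of neighbouring tissues were measured beside them. Of 15 tested genes of meningeal fibroblasts, all 15 lay on the positive side and 6 rose there by the authors' adjusted p, beside 0.183% of all tested genes. The median back-calculated log2 fold change of the 15 was 1.18. Fmod, fibromodulin, a matrix protein, had 242, 655 and 212 in A, B and C, and 65.3, 89.9 and 115 in D, E and F, and the authors' deposited table gives it an adjusted p of 0.000579. Bmp3, a secreted member of the BMP family, had 298, 219 and 111 against 53.4, 85.0 and 43.8. Neither gene's groups overlapped, and the same held for 8 of the 12 meningeal genes with recovered reads. Of the 1405 genes with a mean of 20 to 40, 8.9% had the positive side all higher. Library B was the highest in 11 of the 12, but only 2 of the 12 had A, B and E all above C, D and F. Of 10 genes of choroid stroma and fenestrated vessels, Dcn, decorin, was the 1 that passed, on the positive side, at an adjusted p that the authors' deposited table gives as 0.0484. The part of meningeal tissue in the choroid plexus values was not tested.

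Ependymal cells, the ciliated lining of the ventricles, had another order. Of 15 tested ependymal and motile cilia genes, 13 lay on the negative side, 0 passed the adjusted threshold, and 4 had an unadjusted p under 0.05, all negative. Library E was the highest in 10 of the 12 with recovered reads, with a median share of 30.4%, against 18.9% in B. Ccdc153, a gene of motile ciliated cells, had 85.2, 120 and 70.2 in A, B and C, and 178, 338 and 138 in D, E and F. Of 12 hippocampal neuron genes, 0 passed, and 4 had an unadjusted p under 0.05, all negative. Over all tested genes, 2.89% had such a p on the negative side. The part of the dissected region in the choroid plexus values was not tested.

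Genes of the pathways the 10 belong to were mostly not called. Of 8 tested genes of the klotho and FGF23 pathway, which includes Kl, Fgfr3, an FGF receptor also abundant in astrocytes, rose on the positive side, and the authors' deposited table puts its adjusted p at 0.0456. It was the 1 call among the pathways. Over all tested genes, 0.328% passed in either direction and 0.183% on the positive side. Of 10 genes of prolactin receptor signalling, 0 passed. Socs3 and Cish, which encode inhibitors of cytokine receptor signalling, had unadjusted p-values of 0.00908 and 0.0380 in the authors' deposited table, on the negative and the positive side. Socs3 had 135, 96.7 and 288 in A, B and C, and 294, 333 and 304 in D, E and F, without overlap. Of the 1405 genes with a mean of 20 to 40, 16.2% had no overlap in either direction. Prl, the receptor's ligand, had 185, 39.8 and 27.4 in A, B and C, and 0.66, 44.1 and 26.5 in D, E and F. Library A alone was high, and D held 1 read.

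Of 13 genes of folate uptake and use, 0 passed and 0 had an unadjusted p under 0.05. Slc19a1, the reduced folate carrier, had a p of 0.262 in the authors' deposited table. Of 4 tested aquaporins 0 passed. Aqp4, the astrocyte water channel, lay on the negative side with a p of 0.0201 in the authors' deposited table, opposite in sign to Aqp1. Of 9 tested bicarbonate transporters of the Slc4 family, 0 passed. Slc4a10, also a choroid plexus transporter, had a p of 0.0417 on the positive side in the authors' deposited table.

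Of 5 chloride intracellular channel genes 0 passed. Clic3 had 36.8, 148 and 20.5 in A, B and C, and 21.8, 36.0 and 5.31 in D, E and F, the high B and low F of the choroid plexus genes. Of 8 tested coagulation genes 0 passed, and F12, coagulation factor XII, had a p of 0.0190 on the positive side in the authors' deposited table. Of 11 tested Sostdc1 relatives and BMP or Wnt antagonists 0 passed, and Sfrp1, a secreted Wnt antagonist, had a p of 0.0322 on the positive side in the authors' deposited table. Of 8 tested Otx and choroid fate regulators 0 passed. Otx1, the relative of Otx2, had 97.8, 117 and 106 in A, B and C, and 75.1, 68.7 and 76.9 in D, E and F. Its groups did not overlap, unlike those of Otx2, and its p was 0.0324 in the authors' deposited table.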

How the data were processed

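RNA was sequenced from 6 hippocampus samples, 3 per treatment. Per the labels' protocols, the authors made stranded mRNA libraries, read them as 150 bp pairs on an Illumina NovaSeq, cleaned the reads in fastp 0.20.0, placed them on the genome by HISAT2 2.1.0, and assigned them to genes by featureCounts 2.0.1. Per the submitters' processing notes DESeq2 1.28.0 was used. The genome build, annotation and strand setting were not given in the sources used here. The deposited table gives each gene a mean normalized count (a signal per gene, counts divided by size factors), a shrunken log2 fold change, the error of that change, and p-values, raw and adjusted, all from the authors. No counts per sample were used from it, since it holds none.

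The deposited log2 fold change was shrunken by a Cauchy prior whose scale, 0.0357, was read from the errors of genes with almost no reads. Undoing it gave a back-calculated log2 fold change and error for tested genes, except 158 with no solution. Where reads were recovered the count model was refitted, and back-calculated values of the choroid plexus genes other than Sostdc1 were 1.02 to 1.17 times the refitted ones. Fitted values are given where reads were recovered.

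Reads were recovered from the deposited mean. Except at low means, the deposited p, fold change and error first bounded the positive side's share of that mean. The worth of 1 read in each of the 6 libraries was read from the most frequent lowest means, and the side from the sign of those genes' fold change. A combination was kept where the refitted z lay within 0.002 and the shrunken fold change within 7%, or within 0.01 and 2%, tolerances set after seeing the data. Of 1453 tested genes with a mean of 20 to 40, 1448 had a single combination by the mean alone and 1405 were within the tolerances. Of 119 listed genes tried, 111 gave 1 combination and 8 none. Among the genes named here, Otx2, Tmem72 and Kcnj13 met only the looser z tolerance. The method was also run on simulated data made with the same count model. Such a run cannot show how well that model holds for the real genes. No test was run on the recovered libraries.

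The choroid plexus genes and all gene lists were chosen with earlier results of these data known. Some lists share genes. Named genes are all 10, and were otherwise drawn from those past the adjusted p, the 4 with the smallest p and the most abundant of each list. Kcnj13, Cldn2 and Ttr fall outside this rule and were named after their values were seen. Calls use the authors' adjusted p of 0.05. The alternatives tried are in the closing section. Python 3 with numpy, scipy and numba was used.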

Additional observations from a re-analysis of the deposited data

How the results depend on the processing

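No choroid plexus gene was called by the authors' adjusted p of 0.05, at 0.1, with a minimum change of 2-fold, with z divided by its SD, or with p-values adjusted again over all genes with a p or over those of at least 1 CPM. The median back-calculated log2 fold change of 1.45 became 0.36 with the prior scale halved and 5.82 with it doubled, and was 0.00077 as deposited. These follow from the shrinkage, since the value undone scales with the square of the prior scale. It was 0.86 as a mean weighted by error, and 1.52 fitted on recovered reads of 8 genes, an alternative chosen after seeing the data. Leaving out 1 library at a time gave a median log2 ratio from 0.40 to 2.57. Without Sostdc1, also chosen after seeing the data, it was 1.57, and 0.45 without library B as well. The error ratio of 4.84 was 4.89 with neighbours of closer mean, and 1.001 with the deposited error, which the prior sets for small values. No paired analysis was possible because the labels give no shared replicate numbers and the recovered libraries carry no sample name. Calls without each replicate were not run, since reads were recovered only for means under 300. The fewest reads lie behind the values of library F, 5 to 70 for the 8 genes, and C, 16 to 90. C and F have the lowest size factors, C the lowest of all.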
